A study of Homo sapiens with 10 samples.

Results

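The insulin-like growth factor (IGF) binding proteins and IGF receptors were followed through the mesenchymal to epithelial transition of PC3 prostate cancer cells. The set held 9 genes of 23170 gene entries, namely the 6 binding proteins IGFBP2, IGFBP3, IGFBP4, IGFBP5, IGFBP6 and IGFBP7 and the 3 receptors IGF1R, IGF2R and INSR, with 11 of 37557 isoform entries. The members were found by gene symbol. They were selected on the expression levels of the same comparisons described here, with those levels already known, so all of their values are given as a description and not as a test.

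IGF1 and IGF2 are secreted growth factors that bind IGF1R, a receptor tyrosine kinase, and, with differing affinity, the related insulin receptor INSR. IGF2R is the cation-independent mannose 6-phosphate receptor, which carries IGF2 to lysosomes without kinase signalling. IGFBP2 to IGFBP6 bind the IGFs with high affinity outside the cell and control how much ligand reaches the receptors, while IGFBP7 binds IGFs weakly. In the prostate and its tumours this axis is known for its action on survival and growth.

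PC3 is an androgen-independent line established from a bone metastasis of human prostate cancer. PC3-Epi (2 samples) was a luciferase-expressing epithelial subpopulation chosen for its light signal and shape. PC3-EMT14 (3 samples) was a mesenchymal population recovered after PC3-Epi had been cultured together with macrophages matured from CD14+ monocytes and treated with IL-4. PC3-EMT14-OVOL1 (3 samples) was made from PC3-EMT14 by lentiviral overexpression of the zinc-finger transcription factor OVOL1, and PC3-EMT14-OVOL2 (2 samples) likewise with its relative OVOL2. The comparator was the parental PC3-EMT14 and not a vector control. All 4 groups therefore derived from 1 parental line, and each line was 1 isolated or selected population. The study describes the samples of a line as biological replicates, with no further detail in the labels.

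RNA-seq values were available as 1 pooled FPKM value (fragments per kilobase of transcript, scaled between libraries by the upper quartile of fragments on transcripts) for each group in each of 4 pairwise comparisons. In these pooled values the 10 samples could not be seen singly, so no spread between replicates or SD was computed. The reads of single samples, which the paper places in the same dataset, were not reprocessed. The authors' own test columns were not used, and every level below is the authors' pooled value. A gene was counted as past 2-fold when its ratio reached 2 and its higher group held at least 1 FPKM. PC3-EMT14 appears in 3 tables and was scaled separately in each, by 0.99 in the OVOL2 table and 1.02 in the PC3-Epi table relative to the OVOL1 table (median over genes). The 3 comparisons with PC3-EMT14 share its libraries and are not independent of each other. The deposited group headers end in II_trim for PC3-EMT14 and both OVOL lines but not for PC3-Epi. The labels do not say what this ending stands for, and any difference it marks cannot be told apart from the line.

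The regulators followed the labels. OVOL1 stood at 0.0238 FPKM in PC3-EMT14 against 11.3 FPKM in PC3-EMT14-OVOL1, with 0.0701 FPKM in PC3-EMT14-OVOL2 and 4.25 FPKM in PC3-Epi. OVOL2 stood at 0.370 FPKM in PC3-EMT14 against 831 FPKM in PC3-EMT14-OVOL2, with 0.562 FPKM in PC3-EMT14-OVOL1 and 9.91 FPKM in PC3-Epi. The 2 overexpressed factors were thus present at very different levels. The epithelial cadherin CDH1 stood at 0.981 FPKM in PC3-EMT14, 16.2 FPKM with OVOL1, 39.2 FPKM with OVOL2 and 50.6 FPKM in PC3-Epi, each read from its own table. Vimentin (VIM) stood at 265 FPKM in PC3-EMT14 and at 183, 76.9 and 42.5 FPKM in the same 3 groups. Of 6 epithelial markers 4, 5 and 6 were past 2-fold higher in the OVOL1 line, the OVOL2 line and PC3-Epi, and of 5 mesenchymal markers 0, 4 and 2 were past 2-fold lower. Among the latter, the matrix protein SPARC stood at 4.92 FPKM with OVOL1 against 4.23 FPKM in PC3-EMT14, and fibronectin (FN1) at 33.8 FPKM in PC3-Epi against 36.8 FPKM.

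Because PC3-EMT14 arose beside macrophages, macrophage genes were read as well. Of 14 macrophage markers, with 19 entries, CD68 alone reached 1 FPKM in any group. CD68, a lysosomal protein that other cell types also make, was the most abundant at 53.0 FPKM in PC3-EMT14, 51.2 FPKM with OVOL1, 57.8 FPKM with OVOL2 and 13.2 FPKM in PC3-Epi. The whole list summed to 53.5 FPKM in PC3-EMT14, 52.0 FPKM with OVOL1, 58.8 FPKM with OVOL2 and 13.9 FPKM in PC3-Epi. The defining markers CD14, PTPRC and CD163 stood at 0.0842, 0.0157 and 0.000916 FPKM in PC3-EMT14, and TYROBP, at 0.0202 FPKM there, was listed at 0 in the other 3 lines.

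The members spanned a wide range of levels, as the plot of member levels by line shows. IGFBP3, IGFBP4 and IGFBP6 were among the abundant transcripts of PC3-EMT14, at ranks 174, 314 and 643 of 23170 entries. IGF2R and INSR stood at ranks 4655 and 10731. IGFBP5, IGFBP2 and IGF1R lay under 1 FPKM in PC3-EMT14, and IGFBP7 was listed at 0. FPKM is a value per transcript length, so these levels can be set beside each other between genes.

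**Figure D1:**
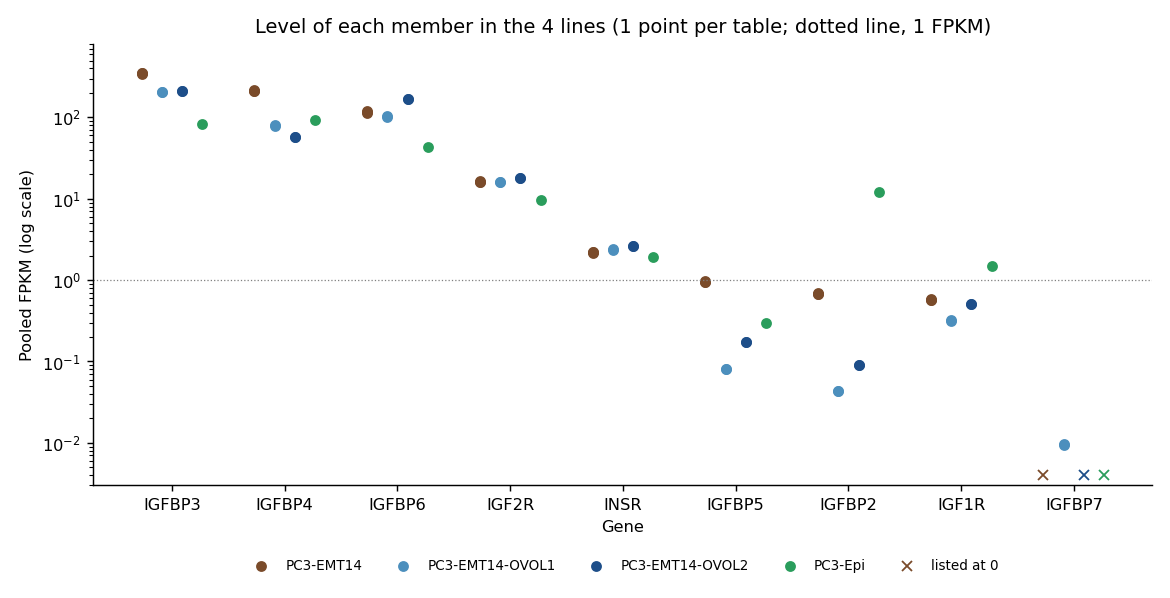
Pooled FPKM of the 9 members (log axis) in the mesenchymal PC3-EMT14, its OVOL1 and OVOL2 derivatives and the epithelial PC3-Epi, with 1 point for each table that holds the line and crosses for values listed at 0. IGFBP3, IGFBP4 and IGFBP6 sit above 40 FPKM in every line, while IGFBP2 is at 12.01 FPKM in PC3-Epi against 0.688 FPKM in PC3-EMT14.

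With OVOL1, 1 of 9 members was past 2-fold, IGFBP4, which was lower. Of all 12111 genes at or above 1 FPKM, 1.23% were lower and 2.06% higher by that measure. With OVOL2, IGFBP4 was again the 1 member past 2-fold and again lower, against 2.58% of 12226 genes lower and 4.16% higher. Between PC3-Epi and PC3-EMT14, 5 members were past 2-fold, with IGFBP3, IGFBP4 and IGFBP6 lower and IGFBP2 and IGF1R higher in PC3-Epi, and over all 12344 genes 7.96% were lower and 7.09% higher. In these counts 5, 5 and 7 of the 9 members reached 1 FPKM in the higher group, and IGFBP2 and IGF1R did so in the PC3-Epi comparison only through their PC3-Epi level. Since the members were chosen with these contrasts known, nothing is read from their counts against those shares.

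**Figure D2:**
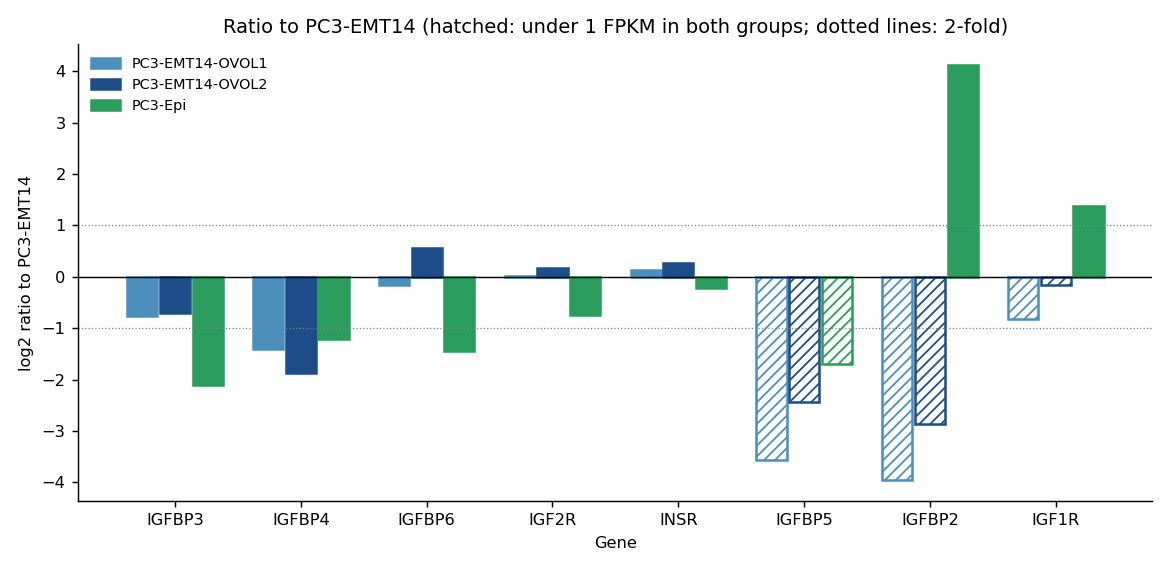
The log2 ratio to PC3-EMT14 of each member (IGFBP7 left out) for the OVOL1 line (light blue), the OVOL2 line (dark blue) and PC3-Epi (green), with hatched bars where both groups were under 1 FPKM and dotted lines at 2-fold. IGFBP4 lies below the lower line in all 3 comparisons, as does IGFBP5 with hatched bars. IGFBP2 lies below it with both OVOL factors, also hatched, and 4.12 above 0 in PC3-Epi.

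IGFBP4 encodes a binding protein that holds IGFs away from their receptors until a protease, PAPPA, cuts it. It lies on chr17:38599676-38613982 (hg19). IGFBP4 stood at 213 FPKM in PC3-EMT14 against 79.8 FPKM in PC3-EMT14-OVOL1, a log2 ratio of -1.41 or a 2.66-fold lower level. In the OVOL2 table the values were 210 FPKM and 57.4 FPKM, a 3.67-fold lower level. In PC3-Epi it stood at 94.0 FPKM against 217 FPKM in PC3-EMT14, a 2.31-fold lower level. IGFBP4 was thus the 1 member past 2-fold in the same direction in all 3 comparisons, and its pooled level was lowest with OVOL2, under that of PC3-Epi. In such bulk RNA fewer cells that express a gene and less RNA per cell cannot be told apart.

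IGFBP3 encodes the main carrier of circulating IGFs, which also has actions on cells that do not need IGF binding. It lies on chr7:45951844-45960871 (hg19). It was the most abundant member in PC3-EMT14, with 348 FPKM against 206 FPKM in PC3-EMT14-OVOL1, 1.69-fold lower. With OVOL2 it stood at 213 FPKM against 345 FPKM, 1.62-fold lower, and both ratios lay inside 2-fold. In PC3-Epi it stood at 83.0 FPKM against 356 FPKM, 4.28-fold lower. The levels of the OVOL lines were close to each other and lay between those of the mesenchymal and the epithelial line. IGFBP3 had 2 isoform entries, and the first carried 99.4% of the transcript in PC3-EMT14, 99.8% in the OVOL1 line, 99.9% in the OVOL2 line and 99.6% in PC3-Epi.

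IGFBP6 encodes a binding protein that prefers IGF2 over IGF1. It lies on chr12:53491436-53496128 (hg19). Among the abundant members it had the widest gap between the OVOL lines. It stood at 116 FPKM in PC3-EMT14 and at 103 FPKM with OVOL1, and in the OVOL2 table it stood at 115 FPKM in PC3-EMT14 and at 169 FPKM with OVOL2. These are log2 ratios of -0.17 and 0.56. In PC3-Epi it stood at 43.5 FPKM against 119 FPKM, 2.72-fold lower. The OVOL2 line therefore held the highest IGFBP6 level of the 4 lines and PC3-Epi the lowest, so that the OVOL2 value lay on the opposite side of PC3-EMT14 from the epithelial line.

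IGFBP2 and IGFBP5 are neighbours on chromosome 2 and are transcribed towards each other, with 7.67 kb between their entries. IGFBP2 lies on the plus strand at chr2:217498127-217529158 and IGFBP5 on the minus strand at chr2:217536828-217560272 (hg19). IGFBP2 encodes a binding protein made by many carcinomas, and IGFBP5 one that binds to extracellular matrix. IGFBP2 stood at 0.674 FPKM in PC3-EMT14 and 0.0435 FPKM with OVOL1, and at 0.667 FPKM and 0.0918 FPKM with OVOL2, while PC3-Epi held 12.01 FPKM against 0.688 FPKM. IGFBP2 was thus 15.5-fold and 7.26-fold lower in the OVOL lines and 17.4-fold higher in PC3-Epi, the widest spread of any member. With a pseudocount of 1 FPKM the log2 ratios of IGFBP2 were -0.68, -0.61 and 2.95, so that both OVOL lines lay within 2-fold. IGFBP5 stood at 0.953 FPKM in PC3-EMT14 and 0.0807 FPKM with OVOL1, at 0.943 FPKM and 0.176 FPKM with OVOL2, and at 0.974 FPKM and 0.300 FPKM in PC3-Epi. IGFBP5 was 11.8-fold, 5.37-fold and 3.25-fold lower, and was lower than PC3-EMT14 in each of the 3 lines. With the pseudocount its log2 ratios were -0.85, -0.73 and -0.60, all within 2-fold.

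Apart from IGFBP2 in PC3-Epi, these ratios rest on levels under 1 FPKM in both groups and were not counted as past 2-fold. How often such ratios occur at this level was read from genes with 0.5 to 1 FPKM in the higher group. With OVOL1, 7.27% of 825 such genes were 2-fold lower and 0.727% were 8-fold lower, both IGFBP2 and IGFBP5 being in the second share. With OVOL2, 7.61% of 841 such genes were 2-fold lower and 0.595% were 8-fold lower, the 2 members being in the first share and not in the second. In PC3-Epi the shares were 24% and 5.78% of 779 genes, with IGFBP5 in the first. The band and the 8-fold cut were not set beforehand, and the members were chosen with these levels known. Nothing about the members is therefore read from these shares. The depth behind these levels, and so their error, is unknown.

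IGFBP7 encodes a secreted protein with low affinity for IGFs that is abundant in vessels and stroma. It was listed at 0 in PC3-EMT14, PC3-EMT14-OVOL2 and PC3-Epi and at 0.00955 FPKM in PC3-EMT14-OVOL1, so no ratio was formed. A listed 0 in these tables may be a failed estimate. Its deposited entry covers 226 kb of chromosome 4, against 79.6 kb in the GENCODE annotation, so that the entry is wider than the gene.

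The binding-protein transcripts were also added up within each table. The 6 members summed to 679 FPKM in PC3-EMT14 and 390 FPKM with OVOL1, to 671 FPKM and 440 FPKM with OVOL2, and to 693 FPKM and 233 FPKM in PC3-Epi. The sum was 1.74-fold, 1.53-fold and 2.98-fold lower. IGFBP3 made up 51.3% of the sum in PC3-EMT14, 53.0% in the OVOL1 line, 48.3% in the OVOL2 line and 35.7% in PC3-Epi. IGFBP4 made up 31.3% of the sum in PC3-EMT14, 20.5% in the OVOL1 line, 13.1% in the OVOL2 line and 40.4% in PC3-Epi. IGFBP6 made up 17.1%, 26.5%, 38.5% and 18.7% in the same order. In the OVOL lines the share of IGFBP4 was thus smaller and that of IGFBP6 larger than in PC3-EMT14, although with OVOL1 the level of IGFBP6 itself was lower. In PC3-Epi the share of IGFBP3 was smaller and that of IGFBP4 larger, and IGFBP2 passed 1% of the sum there alone, at 5.15%.

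**Figure D3:**
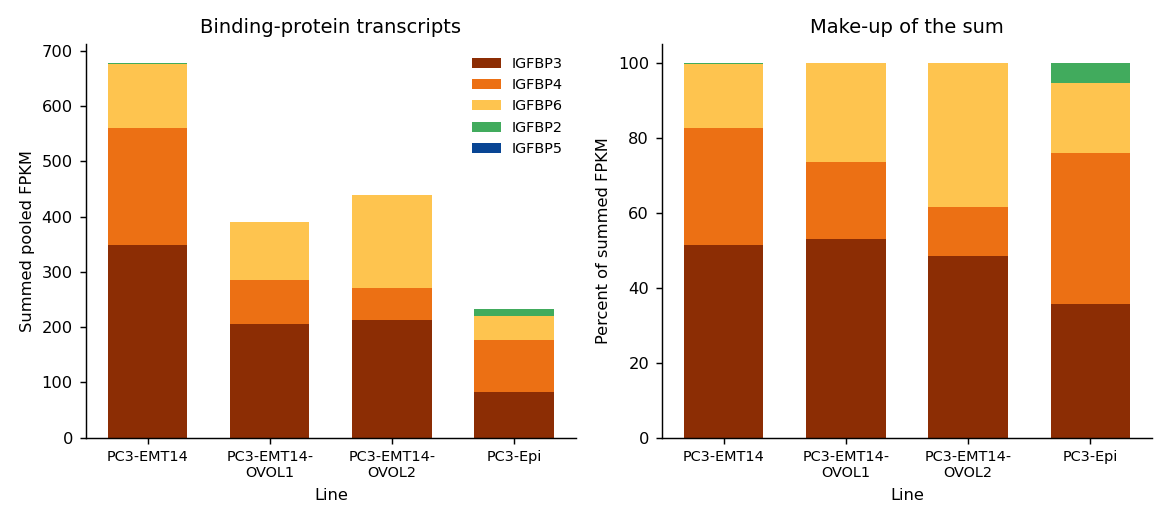
Summed pooled FPKM of the binding proteins in each line (left) and the percent that each contributes (right), with PC3-EMT14 and PC3-EMT14-OVOL1 from their shared table, PC3-EMT14-OVOL2 and PC3-Epi each from its table with PC3-EMT14, and IGFBP7, at or near 0, left out. The bar is tallest in PC3-EMT14 at 679 FPKM and shortest in PC3-Epi at 233 FPKM, and IGFBP6 takes its largest share, 38.5%, in PC3-EMT14-OVOL2.

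The windows of 250 bases before the RefSeq start sites of IGFBP4, IGFBP3, IGFBP2 and IGFBP5 are shown because these binding proteins had lower levels with either OVOL factor. They come from the RefSeq promoter set of assembly GRCh38.p14, and each matched the GRCh37 (hg19) genome exactly once. The bases run 5′ to 3′ on the strand of the gene. Capitals mark CACCTG or its reverse complement CAGGTG, the E-box bound by ZEB factors, CCGTTA or TAACGG, a word that is 1 form of the inner part of the longer OVOL2 consensus, and TATAAA or TTTATA, the TATA box. None of the words overlaps another. The window of IGFBP4 is chr17:38599452-38599701 on the plus strand, that of IGFBP3 is chr7:45960872-45961121 on the minus strand, that of IGFBP2 is chr2:217497893-217498142 on the plus strand, and that of IGFBP5 is chr2:217560273-217560522 on the minus strand.
IGFBP4: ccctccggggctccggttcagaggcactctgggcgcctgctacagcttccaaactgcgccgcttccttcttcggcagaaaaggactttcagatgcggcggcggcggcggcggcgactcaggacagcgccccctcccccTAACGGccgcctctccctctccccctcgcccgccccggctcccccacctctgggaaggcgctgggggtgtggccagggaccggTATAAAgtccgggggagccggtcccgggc
IGFBP3: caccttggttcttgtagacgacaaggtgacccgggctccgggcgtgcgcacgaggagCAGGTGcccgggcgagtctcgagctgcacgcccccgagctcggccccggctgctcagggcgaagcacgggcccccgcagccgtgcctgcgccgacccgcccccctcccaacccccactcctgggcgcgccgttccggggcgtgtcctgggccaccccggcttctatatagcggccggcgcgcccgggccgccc
IGFBP2: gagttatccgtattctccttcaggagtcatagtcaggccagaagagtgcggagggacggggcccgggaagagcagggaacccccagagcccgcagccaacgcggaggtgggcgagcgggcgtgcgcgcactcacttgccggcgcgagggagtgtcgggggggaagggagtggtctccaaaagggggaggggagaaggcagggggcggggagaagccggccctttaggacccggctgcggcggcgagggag
IGFBP5: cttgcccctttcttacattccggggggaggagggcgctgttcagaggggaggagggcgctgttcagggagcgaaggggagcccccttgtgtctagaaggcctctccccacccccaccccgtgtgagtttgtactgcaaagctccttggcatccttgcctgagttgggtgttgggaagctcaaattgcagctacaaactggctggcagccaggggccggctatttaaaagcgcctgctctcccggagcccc

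IGFBP4 held TAACGG 112 bases and TATAAA 29 bases before its start. The full OVOL2 consensus, with its flanking letters, was in 0 of the 10 windows of members and in 0.877% of all windows. The inner OVOL word was in 2.45% and the TATA box in 10.7% of all 35116 RefSeq windows of this length. IGFBP3 held CAGGTG 193 bases before its start, a word found in either orientation in 17.5% of all windows. The windows shown for IGFBP2 and IGFBP5 held none of the 3 words. Of the other members, IGFBP6 held CACCTG 69 bases before its start and IGF2R held it at 184 and 91 bases, and IGF1R and INSR held none. IGFBP2 had 3 RefSeq starts, of which the nearest to the deposited entry is shown, and the most upstream one held CACCTG 208 bases before its start. IGFBP7 was not matched. A match is a description of letters and shows no binding.

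IGF1R, the signalling receptor of the axis, lies on chr15:99192761-99507759 (hg19). It stood at 0.570 FPKM in PC3-EMT14 and 0.321 FPKM with OVOL1, at 0.564 FPKM and 0.502 FPKM with OVOL2, and at 0.582 FPKM and 1.51 FPKM in PC3-Epi. IGF1R was 2.58-fold higher in PC3-Epi, while its log2 ratios with OVOL1 and OVOL2 were -0.83 and -0.17 on levels under 1 FPKM. With a pseudocount of 1 FPKM the log2 ratio of IGF1R in PC3-Epi was 0.66, no longer past 2-fold. Neither OVOL line lay on the epithelial side of PC3-EMT14 for this receptor.

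IGF2R lies on chr6:160390131-160527583 (hg19) and was the most abundant receptor. It stood at 16.1 FPKM in PC3-EMT14 and 16.2 FPKM with OVOL1, at 15.9 FPKM and 18.0 FPKM with OVOL2, and at 16.4 FPKM and 9.75 FPKM in PC3-Epi. The ratios were within 1.13-fold with either OVOL factor, and the level was 1.68-fold lower in PC3-Epi. Of the 7 genes that share the mannose 6-phosphate route with IGF2R, 0 were past 2-fold in any of the 3 comparisons, with median log2 ratios of -0.02, 0.00 and -0.19. Of all genes, 2.06%, 4.16% and 7.09% were higher and 1.23%, 2.58% and 7.96% lower in the OVOL1, OVOL2 and PC3-Epi comparisons. For 7 genes a count of 0 lies near those shares, so nothing about the route is read from it.

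INSR, the insulin receptor, lies on chr19:7112266-7294011 (hg19). Its gene level stood at 2.19 FPKM in PC3-EMT14 and 2.40 FPKM with OVOL1, at 2.17 FPKM and 2.62 FPKM with OVOL2, and at 2.24 FPKM and 1.93 FPKM in PC3-Epi, with log2 ratios of 0.13, 0.27 and -0.22. IGF1R had the wider range of log2 ratios of the pair.

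Below the nearly level INSR total, its 2 isoform entries differed between lines. The INSR transcript is known to be spliced into forms with and without a short exon that changes ligand preference, but the entries carry no transcript name, so they are called here the first and the second. The first stood at 0.719 FPKM in PC3-EMT14, 1.19 FPKM with OVOL1, 1.09 FPKM with OVOL2 and 1.33 FPKM in PC3-Epi. The second stood at 1.47, 1.21, 1.53 and 0.599 FPKM in the same order. The first entry thus made up 32.8% of INSR in PC3-EMT14, 49.5% in the OVOL1 line, 41.6% in the OVOL2 line and 68.9% in PC3-Epi, where it was the larger of the pair. Over the 2576 genes with exactly 2 isoform entries and at least 1 FPKM in both groups, the median shift in share with OVOL1 was 1.61 percentage points, and 2.48% shifted at least as far as the 16.7 points of INSR. With OVOL2 the shift was 8.84 points, equalled or passed by 14.3% of 2569 genes, and in PC3-Epi it was 36.1 points, equalled or passed by 1.47% of 2521 genes. Among genes nearer the level of INSR, with 1 to 5 FPKM in both groups, the shares were 6.40% of 531, 23.6% of 513 and 3.42% of 409 genes, a range set after its values were seen. ESRP1, an epithelial splicing regulator, stood at 0.406 FPKM in PC3-EMT14, 15.2 FPKM with OVOL1, 11.7 FPKM with OVOL2 and 84.6 FPKM in PC3-Epi, and its part in the INSR shares was not tested.

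**Figure D4:**
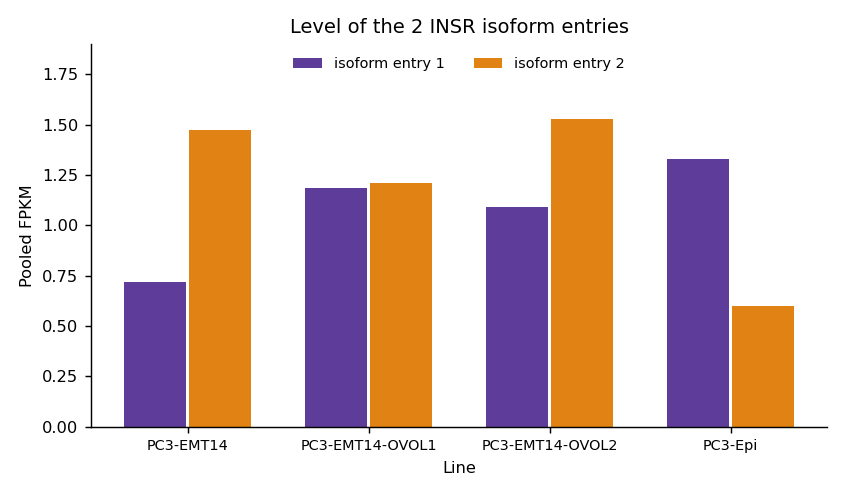
Pooled FPKM of the first and second INSR isoform entries in each line, with PC3-EMT14 and PC3-EMT14-OVOL1 from their shared table and the other lines from their tables with PC3-EMT14. The second entry is higher in PC3-EMT14 (1.47 against 0.719 FPKM), the entries are nearly level with OVOL1, and the first is higher in PC3-Epi (1.33 against 0.599 FPKM).

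PC3-EMT14-OVOL2 was also compared directly with PC3-EMT14-OVOL1. At or above 1 FPKM, 0 of the 9 members were past 2-fold, against 0.801% of 12113 genes lower and 1.68% higher with OVOL2, and 5 members reached that level. IGFBP6 stood at 102 FPKM with OVOL1 and 169 FPKM with OVOL2, 1.66-fold higher and the furthest apart of those 5. IGFBP4 stood at 78.9 and 57.4 FPKM, 1.38-fold lower with OVOL2. IGFBP3, at 204 and 212 FPKM, was nearly level. IGFBP2 and IGFBP5 were 2.13-fold and 2.20-fold higher with OVOL2 at levels of 0.0918 FPKM or less and 0.175 FPKM or less.

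The ligand transcripts were listed at low levels. IGF1 stood at 0.00274 FPKM in PC3-EMT14 and was listed at 0 with OVOL1 and in PC3-Epi, with 0.000714 FPKM in PC3-EMT14-OVOL2. Whether those 0 values are failed estimates was not checked. IGF2 shares its entry with INS and INS-IGF2, so these cannot be told apart. That entry stood at 0.365 FPKM in PC3-EMT14 and 0.0411 FPKM with OVOL1, at 0.361 FPKM and 0.0881 FPKM with OVOL2, and at 0.373 FPKM and 0.109 FPKM in PC3-Epi. Like IGFBP5, the entry was lower in all 3 lines than in PC3-EMT14, and lowest with OVOL1.

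The other genes of the pathway comprised 102 symbols in 8 lists with 101 entries, of which 76, 77 and 77 reached 1 FPKM in the OVOL1, OVOL2 and PC3-Epi comparisons. With OVOL1, 2 were past 2-fold higher and 2 lower (2.63% each, against 2.06% and 1.23% of all genes). With OVOL2, 4 were higher and 7 lower (5.19% and 9.09%, against 4.16% and 2.58% of all genes). In PC3-Epi, 5 were higher and 10 lower (6.49% and 13.0%, against 7.09% and 7.96% of all genes). The median log2 ratios were -0.05, -0.05 and -0.21, against 0.00, -0.04 and -0.01 over all genes at or above 1 FPKM. The lists were chosen with earlier results of these data known, so their counts and shares, here and below, are a description only. In the direct comparison, 0 were higher and 3 lower with OVOL2 (4% of 75, against 0.801% of all genes lower and 1.68% higher), namely IGFBP1, CTGF and ESM1.

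IGFBP1, the remaining classical binding protein and the gene next to IGFBP3 on chromosome 7, stood at 1.93 FPKM in PC3-EMT14 and 1.49 FPKM with OVOL1. It stood at 1.91 FPKM and 0.660 FPKM with OVOL2, and at 1.97 FPKM and 0.266 FPKM in PC3-Epi, 7.40-fold lower. It resembled IGFBP3 in being lower in each line than in PC3-EMT14. Proteins with an IGFBP domain that are not classical binding proteins included the most distant values. ESM1, a secreted proteoglycan of endothelium, stood at 45.0 FPKM in PC3-EMT14 and 20.0 FPKM with OVOL1, at 44.5 FPKM and 6.38 FPKM with OVOL2, and at 45.9 FPKM and 1.07 FPKM in PC3-Epi, 42.9-fold lower. HTRA1, a secreted serine protease, stood at 13.1 FPKM in PC3-EMT14 and 5.30 FPKM with OVOL2, and was 17.8-fold lower in PC3-Epi. CTGF, a matricellular protein, stood at 34.1 FPKM in PC3-EMT14 and 10.1 FPKM with OVOL2. CYR61, of the same list and named after its values were seen, stood at 127 FPKM in PC3-EMT14 and 257 FPKM with OVOL2, 2.02-fold higher. The median log2 ratio of the list with OVOL2 was 0.07. In this list of 12 genes 7 reached 1 FPKM, of which 1 was lower with OVOL1, 3 were lower and 1 higher with OVOL2, and 3 were lower in PC3-Epi. The lower share was 14.3%, 42.9% and 42.9%, against 1.23%, 2.58% and 7.96% of all genes, and the higher share with OVOL2 was 14.3% against 4.16%. These shares rest on 7 genes of a list chosen with earlier results of these data known, so nothing is read from them.

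Among the proteases and inhibitors that set the half-life of binding proteins, PAPPA, the IGFBP4 protease, stood at 0.00949 FPKM in PC3-EMT14 and no higher in the other lines. The stanniocalcins, which inhibit PAPPA, lay on opposite sides of PC3-EMT14. STC1 stood at 11.9 FPKM in PC3-EMT14 and 4.77 FPKM with OVOL1, at 11.7 FPKM and 4.13 FPKM with OVOL2, and at 12.1 FPKM and 3.27 FPKM in PC3-Epi, 2.49-fold, 2.84-fold and 3.71-fold lower. STC2, named after its values were seen, stood at 20.9 FPKM in PC3-EMT14 and 41.9 FPKM with OVOL1, at 20.7 FPKM and 41.3 FPKM with OVOL2, and at 21.3 FPKM and 48.5 FPKM in PC3-Epi. ADAM12, a metalloprotease that cuts IGFBP3 and IGFBP5, was 4.04-fold lower in PC3-Epi, at 1.18 FPKM against 4.77 FPKM. PLAU, the urokinase and also named after its values were seen, was listed at 0 in PC3-EMT14-OVOL1 beside 964 FPKM in PC3-EMT14, and at 2016 FPKM in PC3-EMT14-OVOL2. In the same table a 0 in PC3-EMT14-OVOL1 was listed for 21 genes with 10 FPKM or more in PC3-EMT14, and for 28 genes the reverse held, and such a 0 may be a failed estimate.

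Downstream of the receptors, GRB7, an adaptor that binds activated receptor kinases, was past 2-fold higher in all 3 comparisons, standing at 2.96 FPKM in PC3-EMT14 and 7.65 FPKM with OVOL1, at 2.93 FPKM and 14.3 FPKM with OVOL2, and at 3.02 FPKM and 9.16 FPKM in PC3-Epi. IRS2, a docking protein of the insulin and IGF receptors, was 2.78-fold higher with OVOL2 and 2.42-fold higher in PC3-Epi, and stood at 2.62 FPKM with OVOL1 against 1.498 FPKM. IRS1, its relative, stood at 9.53 FPKM in PC3-EMT14 and at 9.38 FPKM with OVOL1, 10.03 FPKM with OVOL2 and 13.03 FPKM in PC3-Epi. SHC1, another adaptor, was 2.84-fold lower in PC3-Epi, and SOCS1, an inhibitor of cytokine signalling, was 3.26-fold lower there. Of 30 adaptors and substrates 24 reached 1 FPKM, of which 1 was higher with OVOL1, 2 were higher and 1 lower with OVOL2, and 3 were higher and 2 lower in PC3-Epi. The higher share was 4.17%, 8.33% and 12.5%, against 2.06%, 4.16% and 7.09% of all genes, and the lower share 0%, 4.17% and 8.33%, against 1.23%, 2.58% and 7.96%.

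In the PI3K and AKT arm, which carries the survival signal, 30 of 31 genes reached 1 FPKM and 0 were past 2-fold with either OVOL factor. Of all genes, 2.06% were higher and 1.23% lower with OVOL1, and 4.16% higher and 2.58% lower with OVOL2. For 30 genes a count of 0 lies near those shares, so nothing about the arm is read from it. In PC3-Epi 1 was higher and 2 were lower (3.33% and 6.67%, against 7.09% and 7.96% of all genes). The latter were PIK3CD, a catalytic subunit of PI3K, 9.81-fold lower at 0.561 FPKM against 5.50 FPKM, and FOXO3, a transcription factor held in the cytoplasm by AKT, 2.66-fold lower. Of the IGF2 mRNA-binding proteins, IGF2BP3 stood at 13.99 FPKM in PC3-EMT14 and 8.54 FPKM with OVOL1, at 13.8 FPKM and 5.92 FPKM with OVOL2, and at 14.3 FPKM and 8.18 FPKM in PC3-Epi. IGF2BP2 stood between 42.8 and 57.1 FPKM and IGF2BP1 at 0.0186 FPKM or less.

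**Figure D5:**
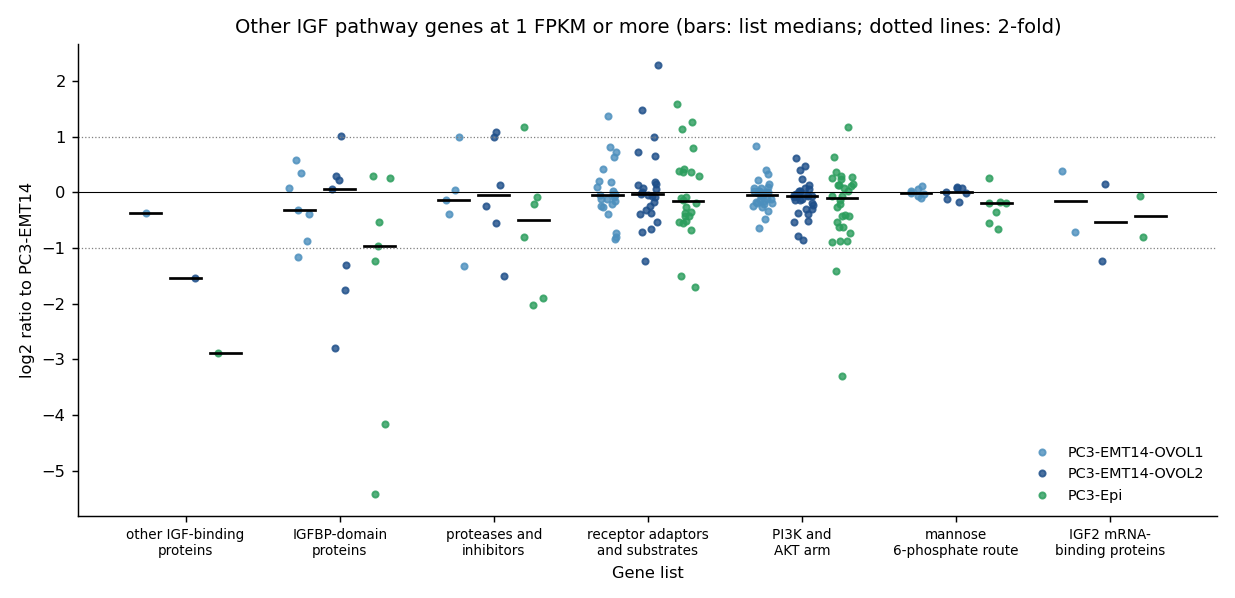
The log2 ratio to PC3-EMT14 of each other pathway gene at or above 1 FPKM, by list and comparison, with black bars for list medians and dotted lines at 2-fold. The PI3K and AKT arm lies within 2-fold with both OVOL factors, and the lowest points, ESM1 and HTRA1 in PC3-Epi, are at -5.42 and -4.15 in the list of IGFBP-domain proteins.

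Without a pseudocount, the 3 members whose ratios to PC3-EMT14 ranged most widely were IGFBP2, IGF1R and IGFBP6. With a pseudocount of 1 FPKM the log2 ratios of IGF1R ran from -0.25 to 0.66, a narrower range than those of IGFBP3, from -2.09 to -0.69. For IGFBP2, IGF1R and IGFBP6, the genes with the closest set of 3 log2 ratios were found by Euclidean distance among 12453 genes. IGFBP2 was nearest to CTDSPL, ZNF350 and SLC40A1, which lay 1.18, 1.76 and 2.33 log2 units away and were thus distant. IGF1R was nearest to MIA, IKZF2 and MUC1, at 0.34, 0.42 and 0.44 log2 units. IGFBP6 was nearest to IL7, LOC619207 and MCF2L2, at 0.10, 0.13 and 0.16 log2 units. These likenesses rest on 3 comparisons that share PC3-EMT14.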

How the data were processed

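RNA was sequenced as paired ends, and the authors aligned reads to hg19 with TopHat and compared groups in pairs with Cuffdiff. Per the labels, FastQC and Cufflinks were also used. The deposited FPKM values of 4 gene and 4 isoform tables hold 1 value per group and table, after the authors' upper-quartile normalization and corrections for sequence bias and multiply mapped reads. The tables also hold the authors' fold changes, test statistics, p and q values and calls, which were not used here. The test status that the paper required for its calls was not read either. Unused columns of single samples numbered 0. Depth is unknown and precision could not be computed.

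Log2 ratios were computed within a table without a pseudocount in Python 3.11.15 with numpy 2.4.6 and pandas 2.3.3, and plots were drawn with matplotlib 3.10.9. A ratio was counted at 2-fold with 1 FPKM in the higher group, and no ratio was formed against a value of 0. The counting was tested on simulated data. Members, lists and motifs were chosen with earlier results of these data known. The text names all members, at most 12 pathway genes by size of ratio with a few by role, the 3 genes nearest in pattern to 3 members and the 2 neighbours on each side of members past 2-fold. Regions are 1-based in hg19, with annotation from GENCODE. Other thresholds, floors, a pseudocount, median centring and isoform sums were tried. Some genes of the lists are not reported here.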

Additional observations from a re-analysis of the deposited data

How the results depend on the processing

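The count of members past 2-fold was 1, 1, 5 and 0 for OVOL1, OVOL2, PC3-Epi and the direct comparison of OVOL2 with OVOL1. By construction it moved with the threshold. At 1.5-fold it was 2, 2 and 1 for OVOL1, OVOL2 and the direct comparison, and at 4-fold 0, 0 and 2 for OVOL1, OVOL2 and PC3-Epi. With no floor, which admits IGFBP2 and IGFBP5, it was 3, 3 and 2 for OVOL1, OVOL2 and the direct comparison. A floor of 0.5 FPKM, chosen after seeing the data, gave 3 for each OVOL line. The count of pathway genes was 4, 11, 15 and 3 in the same order. It was 15, 20, 28 and 6 at 1.5-fold, 0, 2, 5 and 0 at 4-fold, and 14, 22 and 8 with no floor for OVOL1, OVOL2 and the direct comparison. The other 56 values of counts, taken as totals, and isoform shares stayed within 1.5 times or did not move. Within those totals, a pseudocount of 1 FPKM or a floor of 5 FPKM each left 4 members past 2-fold in PC3-Epi, 1 higher and 3 lower. With the pseudocount the pathway genes went from 2 higher and 2 lower to 1 and 3 with OVOL1, and from 0 higher and 3 lower to 1 and 2 in the direct comparison. Centring on the median of all genes took them from 4 higher and 7 lower to 6 and 7 with OVOL2. The pseudocount shrank 9 member ratios by over 1.5 times, all of IGFBP2, IGFBP5 or IGF1R. No member ratio past 2-fold changed sign under the pseudocount, centring, isoform sums or the ratio through PC3-EMT14. No paired analysis was possible because the deposited columns are pooled per group and carry no replicate numbers. Leaving out single samples was not possible for the same reason. Depth is unknown, so values under 1 FPKM have no stated precision.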

Other observations

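Of 20 genes beside the members past 2-fold, 9 stayed within 2-fold of PC3-EMT14 in all 3 comparisons. Another 3 were past 2-fold at 1 FPKM or more (IGFBP1, TNS3 and LOC283335). A further 6 were past it only at lower levels, among them IGFBP5, itself a member, and 2 were listed at 0 in every line. Of all genes at or above 1 FPKM, 2.06%, 4.16% and 7.09% were higher and 1.23%, 2.58% and 7.96% lower in the OVOL1, OVOL2 and PC3-Epi comparisons. The tally pools 3 comparisons and is given as a description, with nothing read from it against those shares. Beside IGFBP4, TOP2A stood at 38.0 FPKM in PC3-EMT14, 40.5 FPKM with OVOL1, 36.9 FPKM with OVOL2 and 57.3 FPKM in PC3-Epi, and TNS4 at 32.8, 23.4, 27.4 and 47.0 FPKM, while GJD3 and CCR7 lay under 0.5 FPKM. Beside IGFBP2, RPL37A and SMARCAL1 had log2 ratios to PC3-EMT14 between -0.21 and 0.29, and TNP1, beyond IGFBP5, was listed at 0. Beside IGFBP3 and IGFBP1, SEPT7P2 had log2 ratios between -0.04 and 0.21, TNS3 was past 2-fold higher in PC3-Epi (41.7 against 18.3 FPKM), and C7orf65 stayed under 0.5 FPKM. Beside IGFBP6, SPRYD3 and CSAD stayed within 2-fold, SOAT2 lay under 0.5 FPKM, and LOC283335 stood at 0.316 FPKM in PC3-EMT14, 0.732 FPKM with OVOL1, 0.984 FPKM with OVOL2 and 1.61 FPKM in PC3-Epi. Beside IGF1R, ARRDC4 and SYNM stayed within 2-fold, PGPEP1L lay under 0.5 FPKM, and FAM169B was listed at 0.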
